A study of Macaca mulatta with 10 samples.

Results

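Hepatokines are proteins that the liver secretes into blood and that act on other organs. The 9 taken here were TSKU, LECT2, FGF21, ANGPTL4, AHSG, FETUB, INHBE, GDF15 and FST. All probe sets were used whose platform annotation gave exactly 1 gene symbol, that symbol being 1 of the 9. This gave 12 probe sets of 8 genes among 52865 probe sets, and 8 of 14133 genes, in all, and INHBE, which encodes a subunit of activin E, had no probe set paired with its symbol and is not analysed here. The genes were selected on the log2 differences between brain-dead and control livers in these same arrays, which were known when the list was drawn up. The differences of the members in that contrast are therefore given as a description, with no p-value.

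The samples were livers of 10 rhesus macaques (Macaca mulatta), each hybridised to a 1-colour oligonucleotide array. The brain-dead group held 5 animals, 2 females and 3 males, made brain-dead by inflating a balloon catheter in the extradural space, with fluid and vasopressin, dopamine or both given to sustain blood pressure. The sample labels give 6 h of brain death and the design text gives 5 h. The control group held 5 living donors, 3 females and 2 males, sedated and ventilated under anaesthesia for 1 h. Brain-dead animals 1, 2, 4 and 5 were 7, 18, 7 and 7 years old, with no age used for animal 3, and control animals 1 to 5 were 16, 10, 4, 20 and 10 years old. In both groups the abdominal organs were flushed in situ with preservation solution before recovery, and the groups differed in ventilation time and vasoactive drugs as well as in brain death, which cannot be told apart.

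Hepatokines link the metabolic state of the liver to fat, muscle, vessels and brain. FGF21 is a hormone of fasting and cell stress that signals through an FGF receptor with the co-receptor KLB, and GDF15 is a stress hormone that acts on the brainstem receptor GFRAL. ANGPTL4 inhibits lipoprotein lipase, the fetuins AHSG and FETUB are abundant plasma proteins of the cystatin superfamily, and FST (follistatin) binds and neutralises activins. LECT2 is a chemotactic protein made mainly by hepatocytes, and TSKU (tsukushi) is a secreted leucine-rich protein that has been studied as a hepatokine in mice.

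Array medians of the signal ranged over 175 to 227, and precision is limited by having 10 arrays. The 6 measured hepatocyte markers of 11 (APOA1, APOB, SERPINA1, APOH, F2 and CYP3A4) were all above the signal filter, and their signals summed to 357558 to 438159 in brain-dead and 447740 to 561299 in control livers. The groups thus did not overlap in this sum. Taken singly, none of the 6 markers passed in limma, and only F2 separated the groups. APOB was dim, averaging 262 in brain-dead and 304 in control livers. Outside the sum, a SERPINA1 probe set rose by 1.17 in log2 signal (adjusted p = 0.0464 in limma with Benjamini-Hochberg adjustment). Other SERPINA1 probe sets had -1.15, -1.14, -0.82 and -0.09, those of CYP3A4 -0.92, -0.76 and -0.16, and that of F2 0.62, none passing. The sum over 4 measured neutrophil markers of 7 was 7428 to 56363 in brain-dead and 694 to 5539 in control livers. Of these S100A8 rose by 3.85 and S100A9 by 3.54 in log2 signal (adjusted p = 0.0128 and 0.00911 in limma with Benjamini-Hochberg adjustment), CSF3R and ELANE did not pass, and MPO lay below the filter. Sums over endothelial, macrophage, biliary, stellate, lymphocyte, and erythroid and platelet markers overlapped between the groups. In that order they rested on 7 of 9, 7 of 8, 3 of 6, 2 of 8, 3 of 9 and 3 of 7 markers. Outside the sums, a probe set of the macrophage marker C1QA had -1.31 in log2 signal (adjusted p = 0.0444 in limma with Benjamini-Hochberg adjustment). The C1QA probe set in the sum had -0.33 and did not pass. In whole liver, fewer cells of a type and less RNA per cell cannot be told apart, and the part of these marker differences in the results below was not tested. Where an offset for hepatocyte markers is given, it raised the difference of every probe set by the same amount. It therefore cannot show which differences follow the markers. Both arrays numbered 1 lay apart from the others on the second principal component, at 72.1 in the brain-dead and 69.6 in the control animal, the others being at most 26.5.

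TSKU and LECT2 were far lower in brain-dead livers, FST was lower on 2 of its 3 probe sets with no overlap between the groups, and AHSG was slightly lower in each brain-dead animal than in any control animal. For FETUB, FGF21, ANGPTL4 and GDF15 the groups overlapped. All 12 probe sets passed the filter on low signal and lay above their array's median on all 10 arrays, in both groups. In the fit over all probe sets (limma, Benjamini-Hochberg adjusted p under 0.05), 4 of the 12 were past the threshold, all of them lower, against 6.1% of the 26653 probe sets tested in either direction and 3.39% lower and 2.72% higher. The groups did not overlap for 5 of the 12, against 6.93% of all tested. Because members were chosen with this contrast known, nothing is read from these shares. The median difference was -0.77 on the log2 scale over the 12 probe sets, 8 of them below 0, beside -0.0027 over all probe sets tested.

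**Figure D1:**
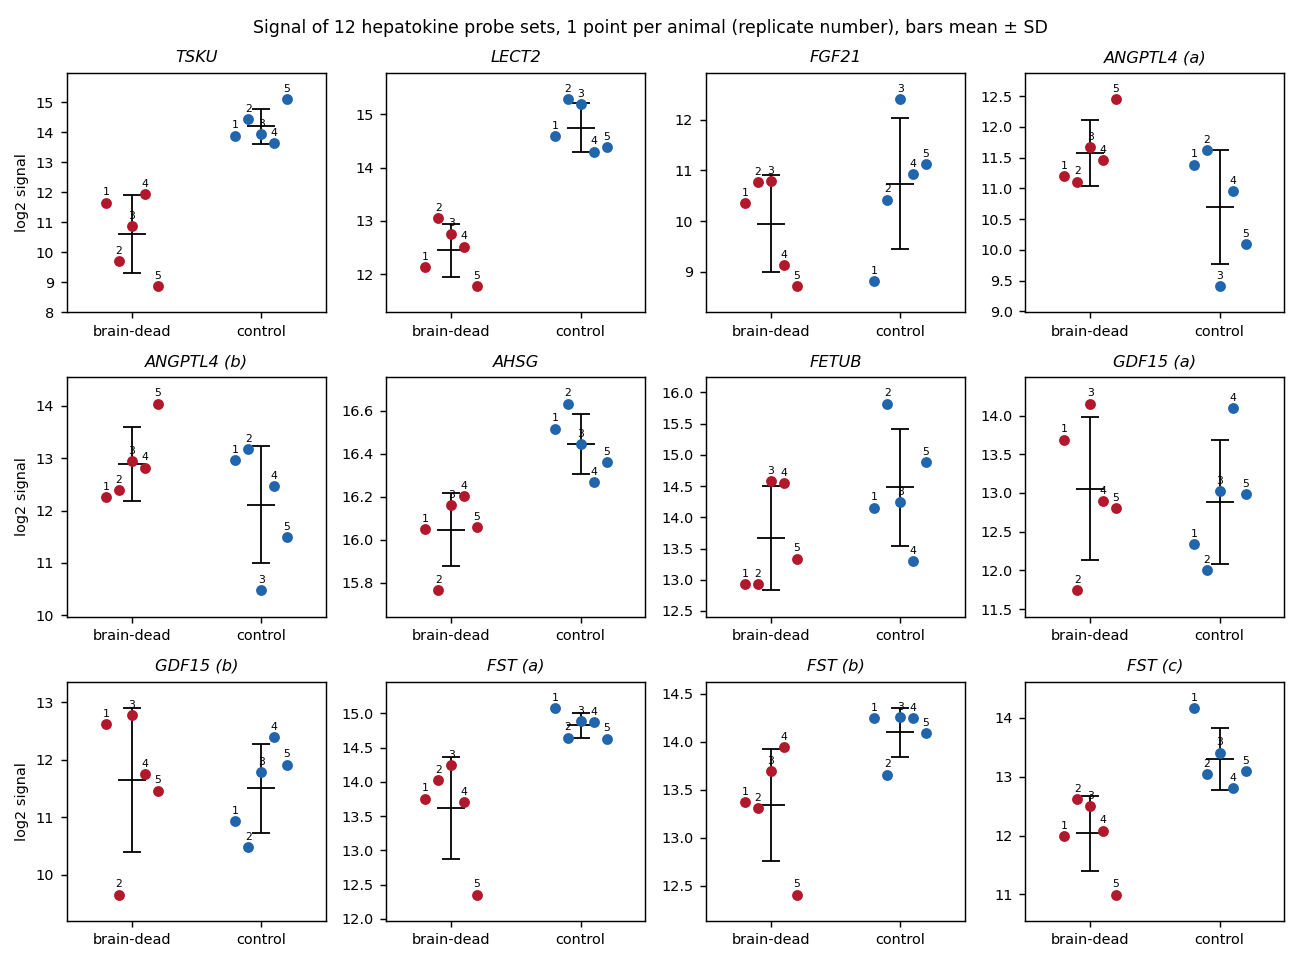
Log2 signal of each of the 12 probe sets (vertical axis, a scale of its own in each panel) in brain-dead and control animals (horizontal axis). Each point is 1 animal with its replicate number, the horizontal mark is the group mean and the bars are ± 1 SD (n = 5 per group). TSKU and LECT2 separate the groups widely, whereas the points of FGF21, GDF15, ANGPTL4 and FETUB intermingle.

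TSKU was measured by 1 probe set (MmugDNA.31558.1.S1_at). Its signal in brain-dead animals 1 to 5 was 3224, 842, 1872, 3925 and 467, against 15175, 22217, 15721, 12689 and 35104 in control animals 1 to 5. The highest brain-dead animal, 4, lay well below the lowest control animal, also numbered 4. The mean signal was 2066 ± 1491 in brain-dead and 20181 ± 9054 in control livers (SD, n = 5 each). The difference was -3.59 ± 0.52 on the log2 scale (SE), or 0.083 of the control level. The brain-dead animals spread more, with an SD of log2 signal of 1.30 against 0.58 in controls, and animals 5 and 2 were the lowest. With arrays offset by their summed hepatocyte markers, a setting added after seeing the data, the difference was -3.30.

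LECT2 was also measured by 1 probe set (MmuSTS.378.1.S1_at), with signals of 4478, 8462, 6942, 5859 and 3500.4 in brain-dead animals 1 to 5, against 24592, 39862, 37578, 20216 and 21519 in control animals 1 to 5. Every brain-dead animal lay below every control animal, and the spread within the groups was similar, the SD on the log2 scale being 0.50 in brain-dead and 0.46 in control livers. The mean signal was 5848 ± 1963 in brain-dead and 28753 ± 9271 in control livers (SD, n = 5 each), a difference of -2.31 ± 0.28 on the log2 scale (SE) or 4.95-fold lower. The difference was -2.01 with the hepatocyte marker offset. TSKU and LECT2 did not order the animals alike. Brain-dead animal 2 had the highest LECT2 signal and the second lowest TSKU signal of its group, and control animal 5, with the highest TSKU signal, had the second lowest LECT2 signal of the controls.

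Over the 24 alternatives run, the difference lay between -3.93 and -3.15 for TSKU and between -2.46 and -2.01 for LECT2, which describes these same arrays and is no independent support. Among them were fits that dropped single arrays, a fit that dropped both numbered 1, and models with sex and with sex and age. The model with age also left out brain-dead animal 3.

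FST, which holds activins inactive, had 3 probe sets, named a, b and c here (MmugDNA.16891.1.S1_at, MmugDNA.26912.1.S1_at and MmugDNA.26915.1.S1_at). Probe set a gave 13829, 16630.2, 19465, 13334 and 5231 in brain-dead animals 1 to 5, against 34669.5, 25629.9, 30242, 29973 and 25378 in control animals 1 to 5. The groups did not overlap, and brain-dead animal 5 was far below the rest of its group. Probe set c gave 4079, 6314, 5771, 4342 and 2044 in the brain-dead animals, against 18444, 8423, 10885, 7162 and 8731 in the control animals. Again the groups did not overlap, control animal 1 standing highest and brain-dead animal 5 lowest. Probe set b gave 10604, 10143, 13269.7, 15723 and 5443 in the brain-dead animals, against 19469, 12925, 19524, 19380.1 and 17401 in the control animals. Here control animal 2 lay below brain-dead animals 3 and 4, so the groups overlapped.

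The FST differences on the log2 scale were -1.21 ± 0.30 for a, -0.75 ± 0.27 for b and -1.26 ± 0.33 for c (SE, n = 5 per group). All 3 probe sets shared the sign, and all ranked brain-dead animal 5 lowest of the 10 animals. That animal also had the highest value of the 10 on the first principal component, 98.1, the next being 58.4. With the hepatocyte marker offset the differences were -0.91, -0.46 and -0.97 for a, b and c. Probe sets a and c were past the threshold in the fit over all probe sets. Their calls ended under 8 of 24 alternatives for a and 14 of 24 for c. FST was chosen with this contrast known, so these calls describe the same arrays and are no test of FST.

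**Figure D2:**
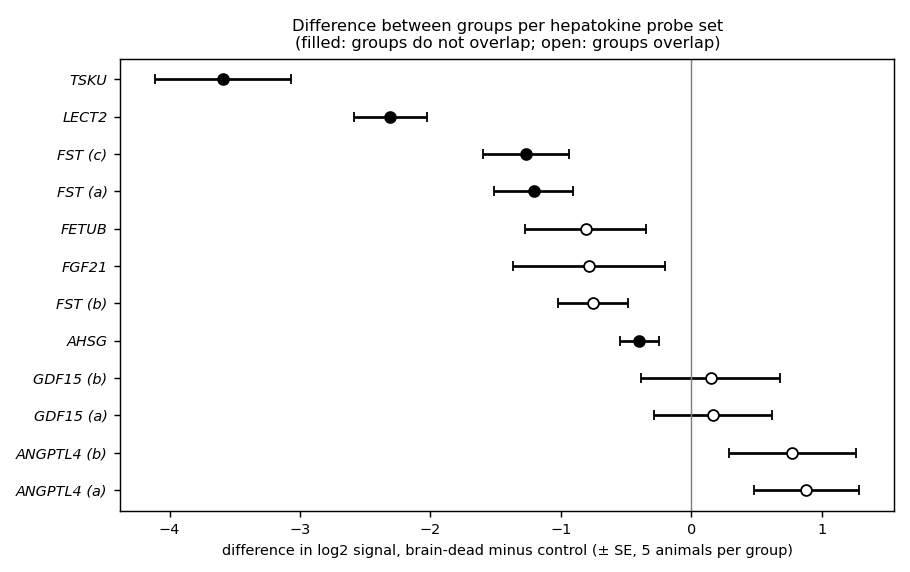
Difference in log2 signal, brain-dead minus control (horizontal axis), for each probe set (vertical axis), with bars of ± 1 SE from limma over 5 animals per group. Filled points mark the 5 probe sets whose groups do not overlap. TSKU at -3.59 and LECT2 at -2.31 stand farthest from 0, and the 3 probe sets of FST lie between -1.26 and -0.75.

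The fetuins AHSG and FETUB, neighbours of each other and of the related HRG gene in the RefSeq annotation of the rhesus assembly T2T-MMU8v2.0, had different spreads. AHSG (fetuin-A) keeps calcium phosphate in solution in plasma, inhibits the insulin receptor kinase and is a negative acute-phase protein in humans. Its signals were 67881, 55679.8, 73378, 75468 and 68189 in brain-dead animals 1 to 5, against 93776, 101645, 89286, 78882 and 84238 in control animals 1 to 5. The groups did not overlap, although brain-dead animal 4 and control animal 4 lay close together. The mean was 68119 ± 7689 in brain-dead and 89565 ± 8750 in control livers (SD, n = 5 each), a difference of -0.40 ± 0.15 (log2, SE) or 1.32-fold lower. It was -0.22 after quantile normalization and -0.10 with the hepatocyte marker offset. Its probe set (MmugDNA.9731.1.S1_s_at) belongs to a class that may also detect related transcripts.

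FETUB (fetuin-B), an inhibitor of astacin-type proteases that in mice keeps the egg coat from hardening early, ranged more than AHSG in both groups. Its probe set (MmuSTS.1938.1.S1_at) gave 7818, 7817, 24596, 24009 and 10359.5 in brain-dead animals 1 to 5, against 18251, 57926, 19411, 10035 and 30144 in control animals 1 to 5. Brain-dead animals 3 and 4 lay among the controls, and control animal 4 lay among the brain-dead animals. The difference was -0.81 ± 0.46 (log2, SE), and it was -0.47 without control animal 2, the highest of all, and -0.52 with the hepatocyte marker offset. It was -1.22 after adding sex and age, a fit that also left out brain-dead animal 3, the highest of its group. The lowest brain-dead animals were the 2 females, numbered 1 and 2, and the difference between brain-dead and control animals was -1.81 in females and 0.07 in males. That contrast between the sexes was -1.88 ± 0.83 (log2, SE) with an unadjusted p = 0.0445 and an adjusted p = 0.9998 (limma interaction of group with sex, Benjamini-Hochberg), and so did not pass.

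FGF21 (MmugDNA.37835.1.S1_at) gave 1315, 1744, 1764, 561 and 419.6 in brain-dead animals 1 to 5, against 451, 1373, 5424, 1948 and 2226 in control animals 1 to 5. The groups overlapped widely, with control animal 1 near the bottom and control animal 3, the youngest of the animals with an age at 4 years, at the top. The difference was -0.79 ± 0.58 (log2, SE) and moved when single animals were dropped. It was -0.48 when brain-dead animal 5 was dropped, -0.37 when control animal 3 was, -1.27 when control animal 1 was and -1.37 when both arrays numbered 1 were. With the hepatocyte marker offset it was -0.49.

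ANGPTL4, induced by fasting, hypoxia and glucocorticoids and a brake on triglyceride uptake from plasma, had 2 probe sets, a (MmugDNA.23470.1.S1_at) and b (MmuSTS.1359.1.S1_at). Probe set a gave 2355, 2211, 3270.3, 2812 and 5587 in brain-dead animals 1 to 5, against 2677, 3155, 680.3, 1991 and 1097 in control animals 1 to 5. Probe set b gave 4908, 5354, 7857, 7234 and 16882 in the brain-dead animals, against 8004, 9271, 1424, 5644 and 2884 in the control animals. Both placed brain-dead animal 5 highest and control animals 3 and 5 lowest, and on both the groups overlapped. The differences were 0.88 ± 0.40 and 0.77 ± 0.49 (log2, SE). Without control animal 3 they were 0.56 on a and 0.36 on b, and without brain-dead animal 5 the difference on b was 0.49. Over the 24 alternatives they ranged between 0.56 and 1.18 on a and between 0.36 and 1.14 on b. Brain-dead animal 5 had the highest ANGPTL4 and the lowest TSKU, LECT2, FGF21 and FST signals of all 10 animals, but was neither highest nor lowest for AHSG, FETUB or GDF15.

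GDF15 also had 2 probe sets, a and b, b being MmugDNA.27443.1.S1_at. Probe set a gave 13199.5, 3423, 18241, 7601 and 7137 in brain-dead animals 1 to 5, against 5175, 4118, 8318, 17481 and 8082 in control animals 1 to 5. Probe set b gave 6303, 804, 7015, 3431 and 2813 in the brain-dead animals, against 1958, 1431, 3529, 5364 and 3859 in the control animals. Both probe sets ordered the brain-dead animals alike, 3 highest and 2 lowest, and both placed control animal 4 highest and control animal 2 lowest among the controls. The groups overlapped on both, the brain-dead animals spreading more on b. The differences were 0.17 ± 0.45 and 0.15 ± 0.53 (log2, SE), and their sign turned under 4 of 24 alternatives for a and 6 of 24 for b. Over the alternatives they ranged between -0.21 and 0.50 on a and between -0.36 and 0.65 on b.

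**Figure D3:**
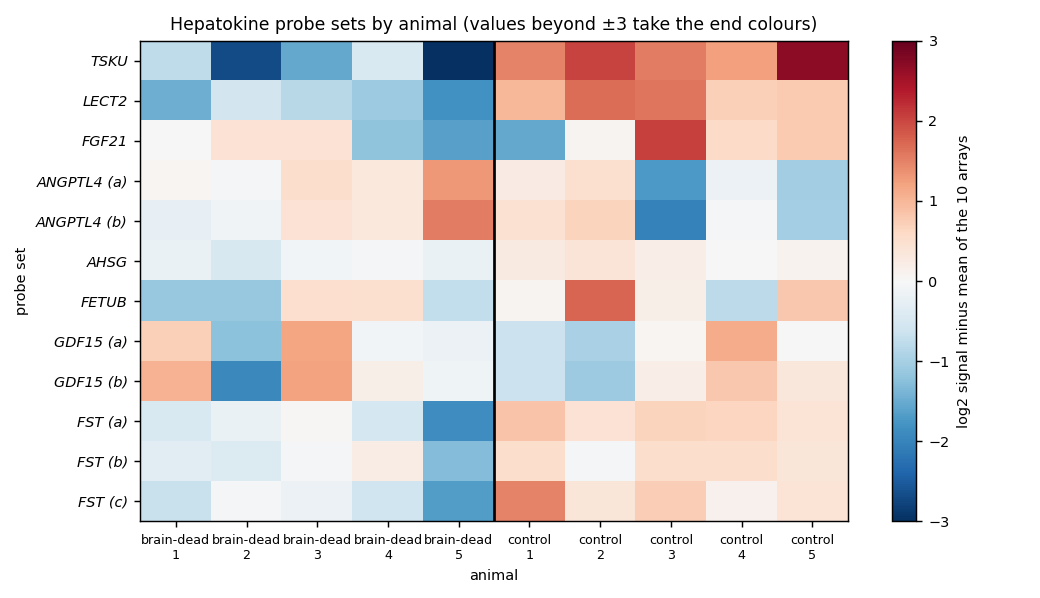
Log2 signal minus the mean of the 10 arrays (colour) for each probe set (rows) in each animal (columns, brain-dead animals left of the line). The probe sets of ANGPTL4 and those of GDF15 show like patterns over the animals. FST b departs from a and c in brain-dead animal 4, at 0.22 against -0.52 and -0.59. Brain-dead animal 5 is lowest for TSKU (-3.54), LECT2 (-1.83) and FST and highest for ANGPTL4 (1.31 on probe set a).

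Sex and age were not used to choose the genes and were tested over all probe sets with limma. None of the 12 probe sets passed the test of female against male livers (limma, group and sex in the model, lowest Benjamini-Hochberg adjusted p = 0.447, 0 of 26653 probe sets past the threshold and 0 of the 12 at an unadjusted p under 0.05, where 12.1% of all were). GDF15 had the largest differences, -0.82 ± 0.42 on probe set a and -0.97 ± 0.49 on b (log2, female minus male, SE), neither past the threshold (adjusted p = 0.447 and 0.449 in limma with Benjamini-Hochberg adjustment). LECT2 had a difference of 0.46 ± 0.26 in the same test (adjusted p = 0.495). The difference between the sexes in the effect of group did not pass for any probe set, 1 of the 12, FETUB, having an unadjusted p under 0.05, where 3.81% of all had one. For TSKU the difference between brain-dead and control animals was -3.40 in females and -3.81 in males, and for LECT2 the difference between the sexes in it was -0.44 ± 0.54 (log2, SE). The slope of signal on age, over the 9 animals with an age in the labels, passed for none of the 12 (limma, lowest Benjamini-Hochberg adjusted p = 0.9998), and none had an unadjusted p under 0.05, where 3.85% of all had one. FETUB had the slope farthest from 0, -0.074 ± 0.042 per year (log2, SE).

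The genes whose profiles over the 10 arrays were most like those of the hepatokines were found by the mean absolute difference of log2 signals, each centred on its own mean. This is a description, and for genes that differ between the groups it reflects that difference. For TSKU they were NR1I3, the constitutive androstane receptor, ALAS1, which starts haem synthesis, and the replication licensing factor CDT1, at 0.57, 0.62 and 0.62, where TSKU itself deviated from its mean by 1.80 on average. For LECT2 they were PIPOX, an enzyme of pipecolic acid breakdown, DGAT2 of triglyceride synthesis and the mRNA-destabilising protein ZFP36, at 0.28, 0.32 and 0.35, against a mean deviation of LECT2 of 1.15. For FST they were NADK2, a mitochondrial NAD kinase, TTC23 and APH1B, a subunit of gamma-secretase, at 0.17, 0.18 and 0.19, against 0.61 for FST itself. The nearest profile was 0.09 from that of AHSG (LOC708774), 0.35 from FGF21 (MTCL1), 0.34 from ANGPTL4 (LOC717843), 0.37 from FETUB (NR6A1) and 0.38 from GDF15 (TRIM5).

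Genes around the hepatokines were taken from 9 lists, each gene represented by its measured probe set with the highest mean signal. Of all 9835 genes measured, 6.77% passed at an adjusted p under 0.05, 3.87% lower and 2.9% higher. Among receptors, co-receptors and protein partners, 13 of 22 were measured and 1 fell. It was FGFR4, the hepatocyte receptor of the bile acid-responsive hormone FGF19, whose signal averaged 1514 ± 262 in brain-dead and 3867 ± 1662 in control livers (SD, n = 5 each). Its change was -1.25 ± 0.30 (log2, SE, limma, Benjamini-Hochberg adjusted p = 0.0292), and -1.20 on its other probe set (adjusted p = 0.0484). The FGFR4 call ended without brain-dead animal 3, 4 or 5, control animal 1, 2 or 3, and both arrays numbered 1 (adjusted p = 0.0599, 0.0662, 0.0673, 0.0656, 0.0744, 0.0575 and 0.0687 in limma with Benjamini-Hochberg adjustment, with 0.00638 to 0.0744 over 24 alternatives). The median change of this list was -0.39, beside -0.0069 over all genes. Singled out after their values were seen, KLB, the co-receptor of FGF21, had a difference of -1.55 ± 0.54 (limma, Benjamini-Hochberg adjusted p = 0.105), LPL, the enzyme that ANGPTL4 inhibits, one of 0.05 ± 0.38 (adjusted p = 0.958), and FZD4, a Wnt receptor that TSKU binds in the chick, one of -0.60 ± 0.21 (adjusted p = 0.104). None of these 3 passed.

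Of 17 genes of the activin system, to which FST and INHBE belong, 14 were measured and 1 passed, the type I activin receptor ACVR1B at -0.97 ± 0.23 (log2, SE, limma, Benjamini-Hochberg adjusted p = 0.0285). The signal averaged 438 ± 135 in brain-dead and 836 ± 127 in control livers (SD, n = 5 each). Another probe set of ACVR1B rose by 2.23 (adjusted p = 0.0377), so no direction can be given for the gene. The call of the first ended without brain-dead animal 3, 4 or 5 and without control animal 1, 2 or 3 (adjusted p = 0.0651, 0.0659, 0.0638, 0.0653, 0.0700 and 0.0657 in limma with Benjamini-Hochberg adjustment, with 0.0118 to 0.0700 over 23 alternatives). That call also ended with no filter, with the hepatocyte marker offset, and after adding sex and age, a fit that left out brain-dead animal 3 as well. The median of the list was 0.06.

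Of 20 other proteins that the liver releases into blood to act elsewhere, 11 were measured, 1 fell and 9 had a difference below 0, with a median of -0.34. SMOC1, a secreted calcium-binding protein that lowers blood glucose in mice, averaged 980 ± 376 in brain-dead and 2251 ± 599 in control livers (SD, n = 5 each) and changed by -1.23 ± 0.29 (log2, SE, limma, Benjamini-Hochberg adjusted p = 0.0285). The second SMOC1 probe set had -0.71 and missed the threshold (adjusted p = 0.255). The call ended without brain-dead animal 3, 4 or 5 and without control animal 1, 2, 3 or 5 (adjusted p = 0.0637, 0.0509, 0.0709, 0.0631, 0.0734, 0.0591 and 0.0580 in limma with Benjamini-Hochberg adjustment, with 0.0112 to 0.0734 over 24 alternatives). It also ended after adding sex and age, a fit that left out brain-dead animal 3 as well.

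Of 7 cystatin relatives 5 were measured and none passed in limma, 1 being lower at an unadjusted p under 0.05. Nothing is read from that count, as the share of all genes at the unadjusted cut was not computed. HRG, a histidine-rich plasma protein, had a difference of -0.36 ± 0.23 and KNG1, the kininogen, one of -0.54 ± 0.15 (limma, Benjamini-Hochberg adjusted p = 0.363 and 0.0520). Of 15 small leucine-rich proteoglycans, the family of TSKU, 9 were measured and 1 fell, CHAD, a protein of cartilage matrix, by 1.47 ± 0.35 on the log2 scale (SE, limma, Benjamini-Hochberg adjusted p = 0.0292). The CHAD signal was low, with means of 248 ± 88.6 in brain-dead and 712 ± 363 in control livers (SD, n = 5 each). Its call ended without brain-dead animal 4 or 5, control animal 1 or 2, and both arrays numbered 1 (adjusted p = 0.0627, 0.0580, 0.0632, 0.0757 and 0.0822 in limma with Benjamini-Hochberg adjustment, with 0.0271 to 0.0822 over 23 alternatives). The CHAD call also ended with no filter and after adding sex and age, a fit that left out brain-dead animal 3 as well. The medians of the cystatin and leucine-rich lists were -0.54 and -0.30.

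FGF21 and GDF15 are known targets of the stress-induced factor ATF4, and FGF21 and ANGPTL4 of the fasting-activated receptor PPARA. Of 24 genes of the ATF4 stress response 15 were measured and 1 fell, PHGDH, the first enzyme of serine synthesis, at 3530.1 ± 673 in brain-dead and 7618 ± 2930 in control livers (mean signal ± SD, n = 5 each). Its change was -1.04 ± 0.28 (log2, SE, limma, Benjamini-Hochberg adjusted p = 0.0435), and its call ended under 14 of 24 alternatives, among them leaving out any 1 array but those of control animals 4 and 5 (adjusted p between 0.0543 without brain-dead animal 1 and 0.108 without brain-dead animal 5). ATF4 itself, singled out after its values were seen, had a difference of 0.67 ± 0.26 and missed the threshold (adjusted p = 0.138 in limma with Benjamini-Hochberg adjustment). The list median was -0.17.

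Of 23 genes on the list of PPARA and its targets 15 were measured, 3 fell, none rose and 12 did not pass, with a median of -0.34. PDK4, a kinase that restrains pyruvate oxidation, averaged 715 ± 500.2 in brain-dead and 5101 ± 3444 in control livers (signal ± SD, n = 5 each). EHHADH, of peroxisomal fatty acid oxidation, averaged 2409 ± 1723 in brain-dead and 8228 ± 1615 in control livers. ACSL1, which activates long-chain fatty acids, averaged 30846 ± 12149 in brain-dead and 61109 ± 6863 in control livers. The changes of PDK4, EHHADH and ACSL1 were -2.91 ± 0.64, -2.06 ± 0.42 and -1.06 ± 0.23 (log2, SE, limma, Benjamini-Hochberg adjusted p = 0.0219, 0.0167 and 0.01996), and -1.30 on the other ACSL1 probe set (adjusted p = 0.0310). The call of PDK4 ended without control animal 1, 2 or 3 and without both arrays numbered 1 (adjusted p = 0.0547, 0.0550, 0.0549 and 0.0602), that of EHHADH without both arrays numbered 1 (0.0544), and that of ACSL1 without brain-dead animal 4 or 5, with no filter, and after adding sex and age (0.0502, 0.0508, 0.0572 and 0.0607), all from limma with Benjamini-Hochberg adjustment. The fit with sex and age also left out brain-dead animal 3. PPARA, singled out after its values were seen, had a difference of -0.96 ± 0.34 and missed the threshold (adjusted p = 0.112 in limma with Benjamini-Hochberg adjustment).

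AHSG is counted among the proteins whose synthesis falls in an acute-phase response. Of 9 other such negative acute-phase proteins 6 were measured, all with a difference below 0 and a median of -0.35. ALB, TTR and TF were not measured. The 6 measured hepatocyte markers, APOA1 being on both lists, also all had a difference below 0, with a median of -0.30. The fall is thus not particular to the negative acute-phase proteins. None of the 6 measured negative acute-phase proteins passed in limma, 3 being lower at an unadjusted p under 0.05. APOA1, the main protein of high-density lipoprotein, had a difference of -0.34 ± 0.14 and HRG one of -0.36 ± 0.23 (limma, Benjamini-Hochberg adjusted p = 0.155 and 0.363). Of 16 positive acute-phase proteins all were measured and none passed in limma, with a median of -0.09 and 3 higher and 1 lower at an unadjusted p under 0.05. The share of all genes at that unadjusted cut was not computed, so nothing is read from the unadjusted counts of either list. The fibrinogen chain FGG had a difference of -0.06 ± 0.13 and haptoglobin (HP) one of -0.13 ± 0.14 (adjusted p = 0.842 and 0.623 in the same fit). Singled out after their values were seen, SAA1 averaged 85852 ± 5903 in brain-dead and 38345 ± 30110.0 in control livers (signal ± SD, n = 5 each), a difference of 1.57 ± 0.46 (adjusted p = 0.0624). LBP, which binds bacterial lipopolysaccharide, had a difference of 0.68 ± 0.30 and CRP one of 0.50 ± 0.22 (adjusted p = 0.192 and 0.189), and none of these 3 passed. The other CRP probe sets had -1.14 and 0.12, neither passing, so the sign for CRP differed between probe sets.

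**Figure D4:**
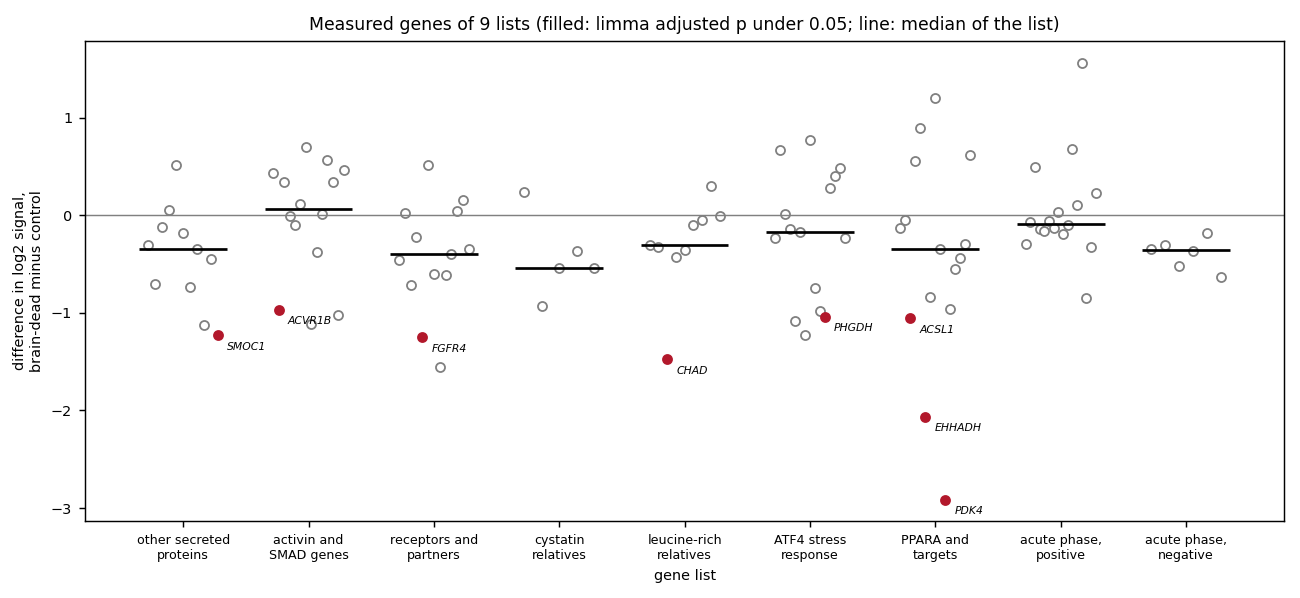
Difference in log2 signal, brain-dead minus control (vertical axis), of each measured gene on 9 lists (horizontal axis), with filled points for limma adjusted p under 0.05 and a line at each list's median. The 8 filled genes lie below 0, from PDK4 at -2.91 to ACVR1B at -0.97, and the medians lie between -0.54 and 0.06.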

How the data were processed

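For each array the authors deposited linear intensities, 1 for every probe set. The submitters' processing notes name MAS5 without a version. The 2% trimmed mean was 1000 on every array. Their log2 was taken with no pseudocount added. Of 52865 probe sets, 99 control probe sets were left out, and probe sets above their array's median on at least 5 of 10 arrays were tested, which left 26653. Of all probe sets 24969 had 1 symbol in the platform annotation of 2016, 361 several and 27535 none. The test was limma 3.58.1 in R 4.3.3 (eBayes with trend, group alone, Benjamini-Hochberg over all probe sets tested, threshold 0.05). Sex, its interaction with group, and age were fitted likewise. Fits with age left out brain-dead animal 3, for which no age was used. The R package data.table (version 1.17.8) read the files, and figures drawn with matplotlib 3.10.9 in Python 3.11.15.

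The members, gene lists and tests were chosen with earlier results of these data known. Genes named from each list were up to 4 past the threshold with the largest differences or, with none past it, the 2 with the highest mean signal, and up to 3 genes nearest in profile to each member. Groups, sex, age and replicate numbers came from the labels. The numbers are not said to pair animals, so they were not taken as pairs. Deviations of same-numbered animals from their group means correlated between 0.0643 and 0.38, highest for number 1. Whether same-numbered arrays shared a batch was not tested. The fit was tested on simulated data. Alternatives were other normalizations, pseudocounts, filters, covariates, eBayes settings, array weights and arrays left out.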

Additional observations from a re-analysis of the deposited data

Results flagged for a closer look

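In 3 of 40 groups of 5 animals, tested over the 12 hepatokine probe sets and the 8 genes past the threshold on the lists, 1 animal lay apart from the others of its group by Dixon's ratio on log2 signal (critical value 0.71). Chance gives about 1 in 20 groups. FST probe set a was low in brain-dead animal 5 (signal 5231, ratio 0.712), an animal that also had the lowest signal on the other FST probe sets. FST probe set b was low in control animal 2 (12925, ratio 0.721), which was not the lowest control on probe set c. FGFR4 was high in brain-dead animal 1 (1977, ratio 0.813). For no hepatokine probe set did the difference between brain-dead and control animals pass the test of a difference between females and males.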

How the results depend on the processing

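The members were chosen on the contrast itself, so their counts are a description. The setting with sex and age also left out brain-dead animal 3. The count of hepatokine probe sets past the threshold, 4, was 2 without the filter, without both arrays numbered 1 and with the hepatocyte marker offset, and 2 to 4 when single arrays were left out. The count over all probe sets, 1627, was 1056 without the filter, 1035 with sex and age, 3013 with the replicate block, 674 without both arrays numbered 1, 3010 with the offset and 660 to 2289 when single arrays were left out. The offset moved the median of all genes from -0.0069 to 0.29 and the share of lower calls to 16.7%, against 55.5% without it. The AHSG difference was -0.22 after quantile normalization and -0.10 with the offset. Counts for other secreted proteins were 0 with sex and age, 2 with the replicate block and 0 to 1 without single arrays. Activin genes had 0 without the filter, at the 75th percentile, with sex and age and with the offset, 2 with the block and with array weights, and 0 to 2 without single arrays. Receptors had 2 with the block and with the offset, 0 without both arrays numbered 1, and 0 to 2 without single arrays. Cystatin relatives had 1 at the 75th percentile, with the block, with array weights and without both arrays numbered 1, and 0 to 1 without single arrays. Leucine-rich relatives had 0 without the filter, at the 75th percentile, with sex and age and without both arrays numbered 1, and 0 to 1 without single arrays. Stress response genes had 0 without the filter, with sex, with sex and age, without trend and without both arrays numbered 1, 4 with the block, 2 with array weights, and 0 to 2 without single arrays. PPARA targets had 2 without the filter, with sex and age and without both arrays numbered 1, 5 with the block and 2 to 4 without single arrays. Positive acute-phase genes had 1 after quantile normalization and with either pseudocount, 2 at the 75th percentile, with the block and with array weights, 3 with the offset, and 0 to 2 without single arrays. The causes of these moves were not tested. The replicate block left the hepatokine count at 4, and 2 of 5 brain-dead animals correlated best with the control animal of their own number. Counts for sex, its interaction and age were 0 under each alternative run. With 5 arrays per group, differences of dim probe sets and of FETUB, FGF21, ANGPTL4 and GDF15 are limited by the spread between animals.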

Other observations

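Probe sets of 1 gene did not always give the same value. SMAD3, a transducer of activin signals, had differences of 0.57 on the probe set with the highest mean signal and of 0.29 and 0.96 on 2 others, none past the threshold, while its remaining probe set rose by 1.74 (limma, Benjamini-Hochberg adjusted p = 0.0211). KNG1 had -0.54 on its brightest probe set and -1.34 and -1.04 on the others, none past the threshold. SAA2, an acute-phase protein, had -0.84 on its brightest probe set, which missed the threshold (adjusted p = 0.0502 in limma with Benjamini-Hochberg adjustment), and fell on the other, by 0.98 on the log2 scale (adjusted p = 0.0454). These 3 genes were singled out after their values were seen.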
